A study of Homo sapiens with 6 samples.

Results

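Potassium channel genes were followed in U87-MG, an established human glioblastoma cell line. They were taken as the genes whose symbol is KCN, a letter code for the subfamily and a number, with antisense genes left out. This gave 95 of the 61806 genes in the deposited table, of which 79 encode pore-forming subunits and 16 encode accessory subunits. Total RNA had been sequenced in 6 libraries. The 3 libraries of the negative control (NC) are labelled wildtype, and the other 3 are labelled as GRIK1 knockdown, with titles that name siRNA 1, 2 and 3. GRIK1 encodes a kainate receptor subunit for glutamate. All 6 come from the same line, the deposited description speaks of shRNA where the titles speak of siRNA, and the labels do not say whether the numbers mark replicates or siRNA sequences, nor how long the cells were treated. Nothing says that the libraries are separate cultures, so p-values measure the spread between these libraries, which may be technical.

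Potassium channels let potassium ions leave or enter the cell down their gradient and so set the membrane potential and help to control cell volume. Voltage-gated (Kv) channels open on depolarization, calcium-activated channels open when cytosolic calcium rises, and inward rectifiers and the two-pore domain (K2P) channels carry the resting conductance. A Kv channel is a ring of subunits that can mix within a subfamily. Silent subunits, among them the Kv6, Kv8 and Kv9 genes, form channels only together with subunits of another subfamily. In glioma cells the large-conductance channel KCNMA1 and the intermediate-conductance channel KCNN4 are known for their part in the volume changes of migrating cells.

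GRIK1 itself had 18, 9 and 8 counts in NC and 15, 20 and 20 under the siRNA label. The target was thus not lower under the siRNA label, and the groups overlapped (edgeR without a filter on low values, log2 fold change 0.44, adjusted p = 0.620, and 0.19 and 0.810 without NC library 3). Changes are therefore stated between library labels, not between levels of GRIK1. Total counts lay between 11099909 and 14006968. NC library 3 stood apart from the other 5. Its median correlation with them was 0.955, against 0.980 to 0.982 for each of the others with the rest, and the first principal component (59.6% of the variance) separated it. The common dispersion of counts was 0.0391, and 0.00298 with NC library 3 left out, so results of tested genes are given with and without it. Of the 6 mesenchymal glioma markers, 5, among them VIM, CD44, TNC and FN1, had a mean of at least 0.5 FPKM, with summed levels of 1086 to 1733 FPKM in NC and 1656 to 1727 under the siRNA label, the lowest in NC library 3. Of 6 astrocyte and glial progenitor markers OLIG2 alone had a mean over 0.5 FPKM and AQP4 was at 0, with summed levels of 0.55 to 0.96 against 0.96 to 1.06 FPKM. GFAP counts were 13, 11 and 8 against 39, 36 and 38. Neuron markers summed to 3.53 to 6.57 against 5.86 to 6.15 FPKM (3 of 6 over 0.5 FPKM, SYT1, SNAP25 and GAD1), and epithelial markers to 5.38 to 6.39 against 4.58 to 5.81 FPKM (3 of 4, EPCAM, KRT8 and KRT18). The leukocyte markers summed to 1.17 to 1.47 against 1.21 to 1.65 FPKM, with CSF1R over 0.5 FPKM and AIF1 and CD3E at 0, and the endothelial markers to at most 0.09 FPKM. The part of other cell types in the results was not tested. In bulk RNA, fewer cells of a type and less RNA per cell cannot be told apart.

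Few potassium channel genes were expressed at more than trace levels. Of the 95, 20 had 0 counts in all 6 libraries, 39 had 1 to 19 counts over the 6 libraries together, and 36 had at least 20. A mean of at least 0.5 FPKM (fragments per kilobase of exonic length, scaled to the library total), the level required for testing, was reached by 16 members, or 16.8%, while 25.7% of all genes reached it. All genes here include pseudogenes, antisense genes and small RNA genes, so these are shares of unlike sets. Of those 16, 11 are pore-forming and 5 accessory. The mean levels of all members summed to 45.2 FPKM, of which the tested members held 89.6%, the 4 highest members 53.7% and KCNN4 alone 23.4%. The plot of levels shows how steeply the expression fell from the highest to the lowest tested member.

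**Figure D1:**
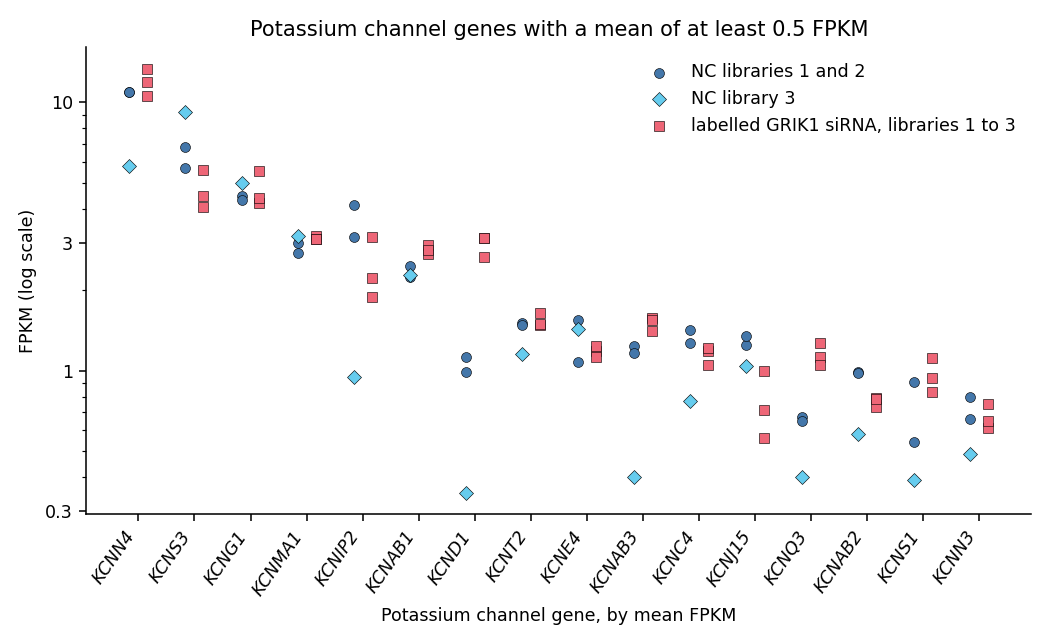
FPKM (log axis) of the 16 tested potassium channel genes, ordered by mean. Each point is a library, with circles for NC libraries 1 and 2, diamonds for NC library 3 and squares for the libraries labelled GRIK1 siRNA. KCNN4 leads with 5.81 to 13.37 FPKM, and NC library 3 is the lowest of the 6 libraries for 10 of the 16 genes.

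A signature shared by the pore-forming members can be read in their coding sequence. The signature of the potassium filter is a run of 5 codons for threonine or serine, any amino acid, glycine, tyrosine or phenylalanine, and glycine. In the GENCODE 29 transcripts it was found in 79 of the 79 pore-forming members, in 0 of the 16 accessory members and in 566 of 19484 genes (2.9%). Genes outside the pore-forming members hold it too, so it does not define them. At that share of genes, its absence from 16 accessory genes does not set these apart. Of the 15 K2P members, 11 held it at least 2 times. Below are 45 bases of coding sequence (GRCh38, coding strand) around the signature for 10 of the tested pore-forming members, with the 15 signature bases in capitals. They are shown because they let the signature be compared between classes. The first 5 are voltage-gated, KCNJ15 is an inward rectifier, and the last 4 are activated by calcium or sodium.
KCNS3: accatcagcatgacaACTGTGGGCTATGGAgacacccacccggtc
KCNG1: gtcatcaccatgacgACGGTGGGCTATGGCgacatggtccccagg
KCNS1: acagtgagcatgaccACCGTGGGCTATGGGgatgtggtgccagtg
KCND1: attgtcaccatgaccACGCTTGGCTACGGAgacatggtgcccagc
KCNC4: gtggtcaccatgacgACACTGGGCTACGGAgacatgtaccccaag
KCNJ15: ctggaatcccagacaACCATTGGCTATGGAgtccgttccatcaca
KCNN4: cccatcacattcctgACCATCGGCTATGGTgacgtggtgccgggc
KCNN3: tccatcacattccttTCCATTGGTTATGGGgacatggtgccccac
KCNMA1: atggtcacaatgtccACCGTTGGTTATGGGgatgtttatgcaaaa
KCNT2: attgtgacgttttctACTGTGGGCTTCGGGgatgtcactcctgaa

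KCNN3 starts the signature with a serine codon where the other 9 have threonine, and KCNT2 has a phenylalanine codon after the first glycine codon where the other 9 have tyrosine. The KCNN4 stretch lies at chr19:43772042-43772086 on the minus strand, in exon 4. That of KCND1 is split over exons 1 and 2, between the outer bounds chrX:48967085-48969173 on the minus strand. The KCNS3 stretch lies at chr2:17932101-17932145 on the plus strand and that of KCNJ15 at chr21:38299625-38299669 on the plus strand.

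Across the 16 tested members the libraries labelled GRIK1 siRNA showed no common direction. In the fit on 6 libraries 7 members were higher and 9 lower, with a median log2 fold change of -0.03 against -0.02 over all tested genes. Without NC library 3, 9 were higher and 7 lower, with a median of 0.05 against 0.01. A single member, KCND1, was called (edgeR, adjusted p under 0.05 and a log2 fold change over 1 in size), and none was called lower. The call was made for 1.41% of the 15870 tested genes, and for 3.09% without NC library 3, where KCND1 was again the 1 member called. At an adjusted p under 0.05 alone, 2 members were higher (KCND1 and KCNQ3) and 0 lower, against 3.09% of all tested genes. Leaving out NC library 3, 2 were higher and 5 lower, namely KCNS3, KCNJ15, KCNIP2, KCNAB2 and KCNC4. In that fit 35.2% of all tested genes passed, so 7 of 16 members is a share near that of genes at large. An unadjusted p under 0.05 was found for 4 members with all libraries and for 25.1% of all genes. In counts scaled to library size by TMM, the groups did not overlap for 6 members, 4 above and 2 below (38.5% of all tested genes). Without NC library 3 they did not overlap for 10, 5 above and 5 below (56.5% of all tested genes). By FPKM, NC library 3 was the lowest of the 6 for 10 members and the highest for 1, whereas it was lowest for 44.4% and highest for 26.8% of all tested genes.

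**Figure D2:**
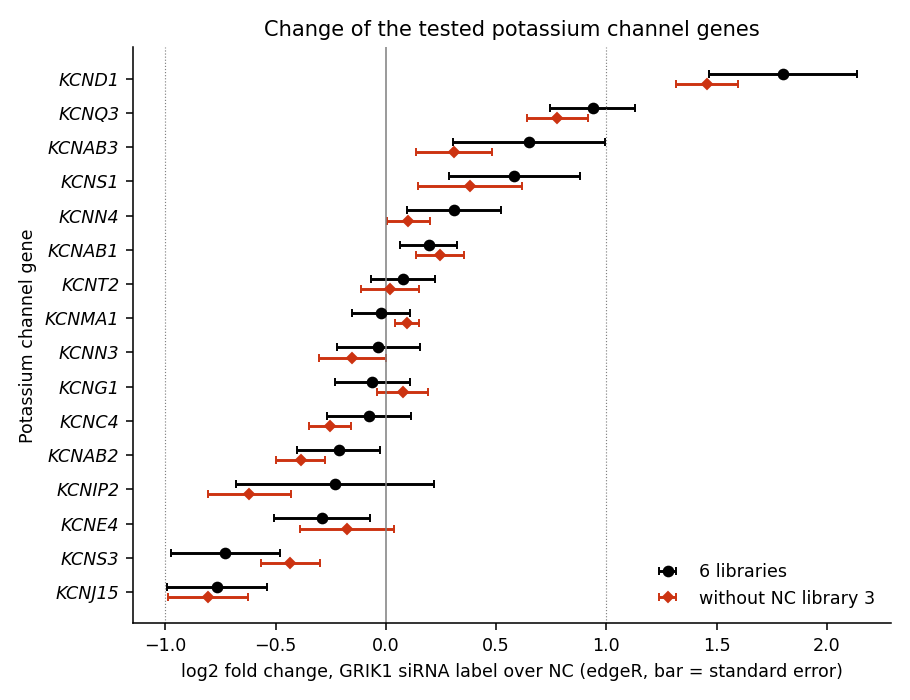
Log2 fold change of the libraries labelled GRIK1 siRNA over NC (edgeR) for the 16 tested potassium channel genes. Bars show the standard error (SE), derived from the F statistic of the test. Black circles use 6 libraries and red diamonds leave out NC library 3, and the dotted lines mark a log2 fold change of 1 in either direction. KCND1 lies highest at 1.80 and 1.46, and KCNJ15 lowest at -0.76 and -0.80.

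KCND1 showed the largest difference of the tested members. It encodes Kv4.1, a pore-forming subunit of the fast-inactivating A-type current (ENSG00000102057, chrX:48961378-48971844, minus strand). Its level was 0.99, 1.12 and 0.35 FPKM in NC and 3.11, 3.13 and 2.65 FPKM under the siRNA label, from 67, 76 and 30 counts against 234, 240 and 213. Each library under the siRNA label was above each NC library, and NC library 3 was the lowest. The mean was 0.820 ± 0.412 FPKM in NC and 2.96 ± 0.272 FPKM under the siRNA label (SD, n = 3 each). KCND1 rose 3.48-fold in edgeR (log2 fold change 1.80, SE 0.34, adjusted p = 0.0408). Leaving out NC library 3 gave a fold of 2.75 (log2 fold change 1.46, SE 0.14, adjusted p = 4.60e-07). The call was lost when any library other than NC library 3 was left out, with adjusted p between 0.0761 and 0.227 and log2 fold changes of 1.76 to 2.07, and in those edgeR fits 0 of all tested genes had an adjusted p under 0.05, with 2238 to 4434 at an unadjusted p under 0.05. The other Kv4 genes were at trace level, with 0 to 4 counts of KCND2 and 0 to 2 counts of KCND3 in a library, so that KCND1 made up 98.4% of the Kv4 level.

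No gene of the deposited table overlaps KCND1. Upstream of it, GRIPAP1 lies 1875 bases away on the same strand and had 847, 741 and 465 counts in NC and 931, 929 and 956 under the siRNA label. The log2 fold change of GRIPAP1 was 0.27 (edgeR, adjusted p = 0.508) and 0.02 without NC library 3. On the other side of KCND1, OTUD5 had a log2 fold change of -0.09 (edgeR, adjusted p = 0.628) and of -0.16 without NC library 3 (adjusted p = 0.0442). Thus neither of these genes passed the test in the fit on 6 libraries, in which KCND1 did.

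KCNQ3 also rose. It encodes Kv7.3, a subunit of the slow M-current that restrains repeated firing of neurons (ENSG00000184156, chromosome 8, minus strand). It had 0.67, 0.65 and 0.40 FPKM in NC and 1.12, 1.27 and 1.05 FPKM under the siRNA label. The groups did not overlap, and the lowest value was again that of NC library 3. Mean levels were 0.573 ± 0.150 and 1.15 ± 0.112 FPKM (SD, n = 3 each). The change was 1.92-fold (edgeR, log2 fold change 0.94, SE 0.19, adjusted p = 0.0495), and 1.71-fold without NC library 3 (log2 fold change 0.78, SE 0.14, adjusted p = 0.000257). With any other library left out the adjusted p lay between 0.0800 and 0.248. KCNQ3 also missed the threshold with upper-quartile scaling (edgeR, adjusted p = 0.0541) and in limma-trend (adjusted p = 0.103 and 0.126 with pseudocounts of 1 and 0.1). In the same subfamily, KCNQ5 had 0 counts and KCNQ1 at most 6 in a library.

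KCNS3 was the second highest member and the highest of the voltage-gated class. It encodes Kv9.3, a silent subunit (ENSG00000170745, chr2:17877847-18361616, plus strand). Its level was 5.70, 6.81 and 9.24 FPKM in NC and 5.60, 4.48 and 4.09 FPKM under the siRNA label. All 3 of the latter were below NC, but the gap between the nearest libraries, 5.70 and 5.60 FPKM, was small. NC library 3 was here the highest. The log2 fold change was -0.73 (edgeR, SE 0.25, adjusted p = 0.134), which did not pass. With NC library 3 left out the gene was lower by less and passed (log2 fold change -0.43, SE 0.13, adjusted p = 0.0176).

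KCNG1, which encodes the silent subunit Kv6.1, had 4.46, 4.32 and 5.01 FPKM in NC and 5.53, 4.20 and 4.40 FPKM under the siRNA label. The groups overlapped, and the log2 fold change of -0.06 (edgeR, adjusted p = 0.839) turned to 0.08 without NC library 3 (adjusted p = 0.662). KCNS1, the silent subunit Kv9.1, lay between 0.39 and 0.91 FPKM in NC and between 0.83 and 1.11 FPKM under the siRNA label (edgeR, log2 fold change 0.58, adjusted p = 0.262, and 0.38 and 0.228 without NC library 3). Over all 6 libraries the Kv9, Kv6 and Kv8 genes had mean sums of 6.78, 4.73 and 0.360 FPKM, out of 16.3 FPKM for the class. Where a gene had 0 counts in a library, this still allows up to 3 counts, which is 0.214 to 0.270 CPM (counts scaled to the library total, without the gene length) depending on the library, and this limit covers counting error only.

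KCNC4 encodes Kv3.4, a rapidly inactivating channel. It had 1.42, 1.27 and 0.77 FPKM in NC and 1.18, 1.05 and 1.21 FPKM under the siRNA label. The groups overlapped (edgeR, log2 fold change -0.08, adjusted p = 0.821) unless NC library 3 was left out (log2 fold change -0.25, SE 0.09, adjusted p = 0.0439). The remaining voltage-gated genes did not reach 0.5 FPKM. The highest of them was KCNV2, a silent Kv8 subunit, with 11, 7 and 1 counts in NC and 16, 9 and 12 under the siRNA label. PUM3 overlaps it on the other strand. KCNA7, a Kv1 gene, had 5, 6 and 1 counts against 5, 17 and 16 (edgeR without a filter, log2 fold change 1.42, unadjusted p = 0.0327, adjusted p = 0.235, and log2 fold change 0.93 without NC library 3, adjusted p = 0.330). KCNH3, an ELK channel named after its values were seen, led the EAG, ERG and ELK genes with 2 to 15 counts in a library.

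Summed over the 40 voltage-gated genes the level was 14.85, 15.90 and 16.56 FPKM in NC and 18.68, 16.12 and 15.87 FPKM under the siRNA label. The groups overlapped, with a log2 ratio of the means of 0.10. Within the class the subfamilies differed in direction. Kv4 went from 0.860 ± 0.389 to 2.98 ± 0.246 FPKM and Kv7 from 0.687 ± 0.116 to 1.22 ± 0.123 FPKM, of which KCNQ3 held 90.4%. Kv9 went from 7.86 ± 1.70 to 5.69 ± 0.747 FPKM (SD, n = 3 each), but its groups overlapped (6.24 FPKM in NC library 1 and 6.55 FPKM in library 1 of the siRNA label), and the log2 ratio of -0.47 was -0.29 without NC library 3. Kv6 (4.64 to 4.81 FPKM) and Kv3 (1.16 to 1.18 FPKM) differed by less than 1 SD. These sums are a description and follow their leading members.

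**Figure D3:**
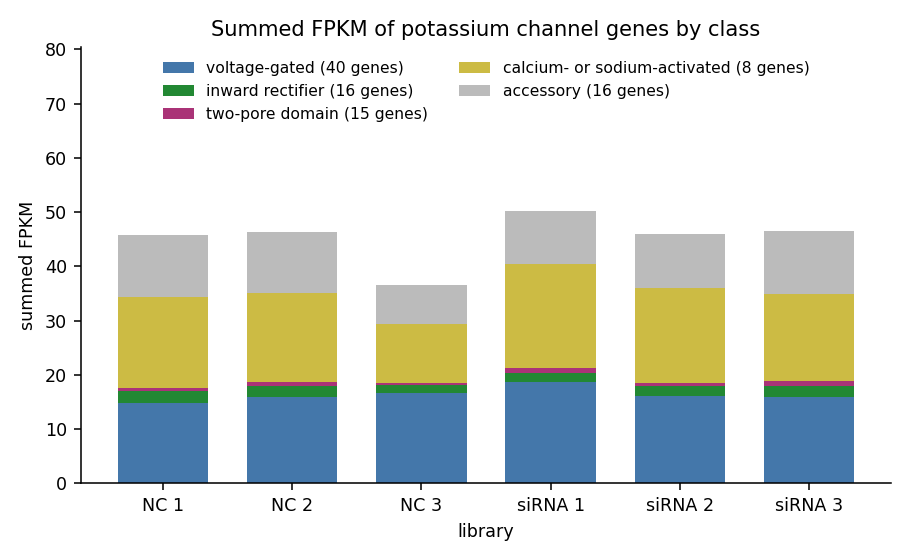
Summed FPKM of the 95 potassium channel genes in each library, stacked by class, with the number of genes in each class. The calcium- or sodium-activated class is smallest in NC library 3 at 10.81 FPKM and 16.08 to 19.18 FPKM in the other 5 libraries, while the voltage-gated class lies between 14.85 and 18.68 FPKM.

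Among the inward rectifiers KCNJ15 (Kir4.2) was the 1 gene of 16 that could be tested (ENSG00000157551, chr21:38155549-38307357, plus strand). Its level was 1.25, 1.35 and 1.04 FPKM in NC and 0.71, 0.56 and 1.00 FPKM under the siRNA label. The groups did not overlap, although library 3 of the siRNA label came close to NC library 3. Mean levels were 1.21 ± 0.158 and 0.757 ± 0.224 FPKM (SD, n = 3 each). The log2 fold change was -0.76 (edgeR, SE 0.23, adjusted p = 0.104). Without NC library 3 it was -0.80 (SE 0.18, adjusted p = 0.00216), and with all libraries the gene passed in DESeq2 (adjusted p = 0.0403, where 10.6% of all tested genes passed) and in edgeR without a filter (adjusted p = 0.0460). The size of the difference was thus much the same in these fits, while the gene lay on either side of the threshold.

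KCNJ14 (Kir2.4) was below the filter with 17, 11 and 11 counts in NC and 21, 33 and 27 under the siRNA label (edgeR without a filter, log2 fold change 0.85, unadjusted p = 0.0371, adjusted p = 0.253). GRWD1 overlaps it on the same strand with 141 to 169 counts in every library. KCNJ13 (Kir7.1) had 2, 2 and 1 counts against 5, 8 and 9 (unadjusted p = 0.0233, adjusted p = 0.196), with NC at or under the limit of 3 counts in each library. It lies opposite GIGYF2, whose own counts were 896, 899 and 691 against 1751, 1770 and 1875, and since the strand setting of the counting is not known, reads of these genes cannot be told apart. KCNJ3, a subunit of G-protein-gated channels, had 16 to 27 counts in every library. KCNJ10 (Kir4.1), the channel by which astrocytes take up potassium and named after its values were seen, had 0 counts in NC and 4, 1 and 0 under the siRNA label. All inward rectifiers together had 2.12, 2.08 and 1.57 FPKM in NC and 1.74, 1.74 and 2.13 FPKM under the siRNA label, which overlap.

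None of the 15 K2P genes reached the filter. Their summed level was 0.64, 0.74 and 0.41 FPKM in NC and 0.85, 0.59 and 0.88 FPKM under the siRNA label. KCNK7 held 40.9% of it, with 3, 4 and 0 counts against 9, 5 and 12 (edgeR without a filter, log2 fold change 1.64, unadjusted p = 0.0417, adjusted p = 0.267, and log2 fold change 1.03 without NC library 3, adjusted p = 0.421). KCNK2, KCNK3 and KCNK6, named after their values were seen, had 32, 51 and 45 counts over the 6 libraries. KCNK2 and KCNK3 (TREK-1 and TASK-1) carry background current. KCNK3 had 11, 9 and 12 counts against 8, 3 and 8, which do not overlap (edgeR without a filter, log2 fold change -0.94, SE 0.54, adjusted p = 0.406), and KCNK2 and KCNK6 had log2 fold changes of -1.10 and 1.08 (adjusted p = 0.441 and 0.343).

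The 250 bases before the start annotated in RefSeq are shown for KCND1, which rose, and for KCNJ15, which was lower in the fit without NC library 3 (RefSeq, GRCh38.p14, 5′ to 3′ on the gene's strand). They are chrX:48971845-48972094 on the minus strand and chr21:38272258-38272507 on the plus strand, and the capitals mark motif matches. The RefSeq start of KCNJ15 used here lies inside the span of the gene in the deposited table, which begins further upstream.
KCND1: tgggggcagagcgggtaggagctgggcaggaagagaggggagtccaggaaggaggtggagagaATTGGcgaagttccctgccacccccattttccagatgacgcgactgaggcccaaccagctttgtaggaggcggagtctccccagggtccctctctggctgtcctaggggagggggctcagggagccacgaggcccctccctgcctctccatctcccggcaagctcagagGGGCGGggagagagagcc
KCNJ15: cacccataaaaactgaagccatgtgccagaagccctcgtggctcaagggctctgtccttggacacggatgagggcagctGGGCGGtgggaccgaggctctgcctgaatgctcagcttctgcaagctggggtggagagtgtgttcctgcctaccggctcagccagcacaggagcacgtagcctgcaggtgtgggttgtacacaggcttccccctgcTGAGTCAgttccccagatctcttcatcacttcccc

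Both windows held 1 GC box (GGGCGG). KCND1 also held a CCAAT box, here as its complement, and KCNJ15 an AP-1 site (TGACTCA), also as its complement. Of 35116 such windows, searched on both strands, 42.6% held GGGCGG, 32.0% CCAAT, 4.2% TGACTCA, 10.7% TATAAA and 6.34% CACGTG, and neither gene held TATAAA or CACGTG. The GC content was 65.6% for KCND1 and 60.0% for KCNJ15. The median was 64.6% over the 11 tested members with a window, 63.6% over 17 of the 20 members with 0 counts and 58.0% over all windows. The range was 45.6 to 79.2% over the former and 46.0 to 80.8% over the latter, so these largely coincide, and a match of letters is a description only.

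KCNN4 was the most abundant potassium channel gene of these cells. It encodes the intermediate-conductance channel KCa3.1, which opens through calmodulin when calcium rises (ENSG00000104783, chr19:43766533-43780976, minus strand). Its level was 10.93, 10.94 and 5.81 FPKM in NC and 13.37, 11.92 and 10.57 FPKM under the siRNA label. NC library 3 lay well below the other NC libraries, and the groups overlapped with and without it. The mean was 9.23 ± 2.96 FPKM in NC and 11.9 ± 1.40 FPKM under the siRNA label (SD, n = 3 each). The log2 fold change was 0.31 (edgeR, SE 0.21, adjusted p = 0.390) and without NC library 3 0.10 (SE 0.10, adjusted p = 0.458).

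KCNMA1, the BK channel opened by both voltage and calcium, differed little between libraries. It had 3.0, 2.74 and 3.17 FPKM in NC and 3.18, 3.10 and 3.09 FPKM under the siRNA label (edgeR, log2 fold change -0.02, SE 0.13, adjusted p = 0.934). Without NC library 3 the log2 fold change was 0.10 (SE 0.05, adjusted p = 0.180). KCNT2, a sodium-activated channel, lay between 1.15 and 1.64 FPKM in all libraries (edgeR, log2 fold change 0.08, adjusted p = 0.754, and 0.02 and 0.933 without NC library 3). KCNN3, the small-conductance channel SK3, lay between 0.49 and 0.80 FPKM (edgeR, log2 fold change -0.03, adjusted p = 0.923, and -0.15 and 0.478 without NC library 3). The 8 genes grouped in the calcium- or sodium-activated class summed to 16.75, 16.27 and 10.81 FPKM in NC and 19.18, 17.52 and 16.08 FPKM under the siRNA label. Most of it was KCNN4 (65.8%), and the groups overlapped.

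**Figure D4:**
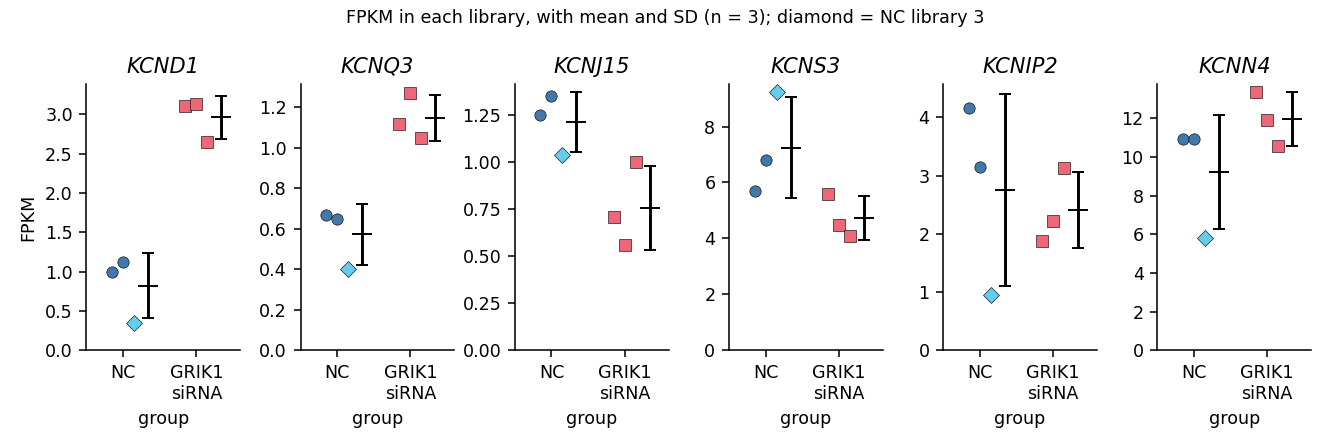
FPKM in each library for KCND1, KCNQ3, KCNJ15, KCNS3, KCNIP2 and KCNN4, each on its own axis from 0, with the mean and SD (n = 3) beside the points and NC library 3 as a diamond. NC and the siRNA label do not overlap for the first 4 genes, and NC library 3 is the lowest point for KCND1, KCNQ3, KCNIP2 and KCNN4 and the highest for KCNS3.

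The accessory subunits were tested for 5 of 16 genes. KCNIP2 encodes a calcium-binding KChIP subunit that brings Kv4 channels to the membrane and slows their inactivation (ENSG00000120049, chr10:101825974-101843920, minus strand). Its level was 4.16, 3.15 and 0.95 FPKM in NC and 1.88, 2.22 and 3.14 FPKM under the siRNA label. NC library 3 was the lowest of all, and the groups overlapped (edgeR, log2 fold change -0.23, SE 0.45, adjusted p = 0.770). Without that library the NC values were both above those of the siRNA label, by as little as 3.15 against 3.14 FPKM, and the log2 fold change was -0.62 (SE 0.19, adjusted p = 0.0155). Its antisense gene KCNIP2-AS1 had 20, 18 and 10 counts against 11, 25 and 24. KCNIP2 and KCND1, partners in a Kv4 channel, had means of 2.75 and 0.820 FPKM in NC and of 2.41 and 2.96 FPKM under the siRNA label. In NC libraries 1 and 2 alone their means were 3.66 and 1.06 FPKM. KCNIP4 had 9 to 27 counts in a library, KCNIP3 a single count and KCNIP1 0.

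The Kv beta subunits bind the inside of Kv1 channels and are related to aldo-keto reductases. KCNAB1 had 2.23, 2.45 and 2.28 FPKM in NC and 2.72, 2.94 and 2.82 FPKM under the siRNA label. The groups did not overlap, but the log2 fold change of 0.19 did not pass (edgeR, SE 0.13, adjusted p = 0.370), nor did that of 0.25 without NC library 3 (adjusted p = 0.0918). On the other strand of KCNAB1 lies ENSG00000272990, with 65, 54 and 15 counts against 84, 92 and 95. KCNAB3 had 1.23, 1.16 and 0.40 FPKM against 1.57, 1.40 and 1.55 FPKM (edgeR, log2 fold change 0.65, SE 0.34, adjusted p = 0.276, and 0.31, SE 0.17, adjusted p = 0.179 without NC library 3). KCNAB2 had 0.99, 0.98 and 0.58 FPKM against 0.73, 0.79 and 0.78 FPKM, and overlaps NPHP4 on the other strand, with 64 to 191 counts. KCNAB2 passed when NC library 3 was left out (edgeR, log2 fold change -0.39, SE 0.11, adjusted p = 0.0117, against -0.21 and 0.498 with it). The Kv1 genes that these subunits bind were scarce, with a summed level of 0.04 to 0.38 FPKM in a library against 3.26 to 5.15 FPKM for the 3 Kv beta genes.

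KCNE4, a single-span subunit that inhibits some Kv channels, had 1.08, 1.54 and 1.43 FPKM in NC and 1.18, 1.12 and 1.23 FPKM under the siRNA label (edgeR, log2 fold change -0.29, adjusted p = 0.424, and -0.18 and 0.573 without NC library 3). KCNE5 had 5, 5 and 5 counts against 9, 7 and 10 and overlaps ACSL4 on the same strand, with 1603 to 4299 counts. KCNMB4, the brain-type beta subunit of KCNMA1, had 25, 19 and 34 counts against 24, 16 and 20. KCNMB3, another beta subunit, had 25, 23 and 20 against 31, 51 and 50 (edgeR without a filter, log2 fold change 0.75, unadjusted p = 0.0258, adjusted p = 0.207), and PIK3CA lies on its other strand with 439 to 715 counts. The 16 accessory genes summed to 11.37, 11.25 and 7.18 FPKM in NC and 9.77, 10.03 and 11.63 FPKM under the siRNA label.

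Of the 20 members with 0 counts in each library, those of the voltage-gated class were KCNA4, KCNA5, KCNB2, KCNC2, KCNF1, KCNG3, KCNH4, KCNH5, KCNH6 and KCNQ5. Those of the inward rectifiers were KCNJ4, KCNJ12, KCNJ16 and KCNJ18, and those of the K2P class KCNK16, KCNK17 and KCNK18. The others were KCNU1 (Slo3), only grouped here with the calcium- or sodium-activated class, and the accessory KCNIP1 and KCNMB1. KCNJ12 and KCNJ18 are near-identical copies, so their counts are uncertain. Of the 79 members below the filter, 20 had at least 20 summed counts. Of the members below the filter that are named here with a p, none had an adjusted p under 0.05 in the unfiltered fit.

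Genes that work with potassium channels were read from 4 lists. Of 27 proteins that bind or regulate KCN channels 15 could be tested. Of these, 2 rose and 0 fell at an adjusted p under 0.05, which 3.09% of all tested genes passed. The median log2 fold change of the tested ones was -0.06, against -0.02 over all tested genes. ABCC9, the sulfonylurea receptor SUR2 of ATP-sensitive channels, had 0.61, 0.45 and 0.59 FPKM in NC and 1.13, 1.05 and 1.16 FPKM under the siRNA label (edgeR, log2 fold change 0.92, SE 0.17, adjusted p = 0.0416). The groups were well apart, and the value without NC library 3 was 1.04 (adjusted p = 1.19e-05). The pore subunits that SUR2 joins, KCNJ8 and KCNJ11, had 4 and 1 counts in all 6 libraries together. AKAP9, the anchoring protein Yotiao that holds protein kinase A at KCNQ1, had 2.92, 2.79 and 1.54 FPKM against 4.96, 5.31 and 5.12 FPKM. It was the 1 listed gene called (edgeR, log2 fold change 1.02, SE 0.20, adjusted p = 0.0437), and without NC library 3 its log2 fold change was 0.82 (adjusted p = 8.84e-09), under the call's limit of 1, so that ABCC9 was then the 1 listed gene called. CALM2, one of the genes for calmodulin, had 34.1, 37.8 and 72.7 FPKM against 28.4, 31.3 and 31.3 FPKM, with a log2 fold change of -0.79 (edgeR, adjusted p = 0.186) that was -0.27 without NC library 3 (adjusted p = 0.00110).

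Of 14 other potassium-permeable channels 6 were tested, and 0 passed in edgeR with all libraries (2 at an unadjusted p under 0.05, 0 in DESeq2, median log2 fold change -0.25). Over all tested genes, 3.09% passed in edgeR, 25.1% had an unadjusted p under 0.05 and 10.6% passed in DESeq2. TMEM38B, the TRIC-B counter-ion channel of the endoplasmic reticulum, had 22.5, 21.4 and 39.3 FPKM in NC and 16.5, 18.2 and 16.1 FPKM under the siRNA label (edgeR, log2 fold change -0.83, adjusted p = 0.134). With NC library 3 left out TMEM38B passed at a smaller log2 fold change of -0.40 (adjusted p = 9.85e-05). CNGA3, a cyclic nucleotide-gated channel, had 1.16, 1.06 and 1.00 against 1.77, 1.64 and 1.52 FPKM (edgeR, log2 fold change 0.53, adjusted p = 0.120, and 0.54 and 0.0264 without NC library 3). Among 24 potassium pumps and cotransporters 8 were tested, and 0 passed in edgeR. Of the 8, 1 had an unadjusted p under 0.05 (25.1% of all tested genes) and 1 passed in DESeq2 (10.6%). Their median log2 fold change was 0.03. The sodium pump beta subunit ATP1B1 came nearest, with 5.61, 5.76 and 5.54 FPKM against 4.32, 4.18 and 4.26 FPKM (edgeR, log2 fold change -0.49, SE 0.11, adjusted p = 0.0578, and -0.44 with an adjusted p of 3.91e-05 without NC library 3). The spread within both groups of ATP1B1 was small beside the gap between them.

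Chloride and volume-regulated channels move with potassium when cells shrink or swell. Of 24 listed 17 were tested and 0 passed in edgeR with all libraries (5 at an unadjusted p under 0.05, against 25.1% of all tested genes, and 2 in DESeq2, against 10.6%). The median log2 fold change was 0.20, and 0.02 without NC library 3. The intracellular exchanger CLCN6 had 5.15, 4.85 and 2.29 FPKM in NC and 7.74, 7.37 and 7.73 FPKM under the siRNA label (edgeR, log2 fold change 0.83, adjusted p = 0.102, and 0.58 and 6.5e-06 without NC library 3). ANO6, a calcium-activated channel and scramblase, had 13.7, 13.6 and 14.5 against 18.52, 18.69 and 19.04 FPKM (edgeR, log2 fold change 0.33, adjusted p = 0.155, and 0.43 and 3.39e-06 without NC library 3). ANO10 had 16.3, 16.4 and 12.6 against 12.6, 11.6 and 11.9 FPKM (edgeR, log2 fold change -0.40, adjusted p = 0.0989, and -0.46 and 1.48e-05 without NC library 3). CLCN2, an inwardly rectifying chloride channel, and LRRC8B, a subunit of the volume-regulated anion channel, had log2 fold changes of 0.66 and 0.43 (edgeR, adjusted p = 0.189 and 0.185), both 0.44 without NC library 3 (adjusted p = 0.0991 and 0.0905). With NC library 3 left out, the numbers higher and lower at an adjusted p under 0.05 were 3 and 2 for the KCN partners, 1 and 3 for the other potassium-permeable channels, 0 and 3 for the pumps and 3 and 5 for the chloride channels, against the 35.2% of all tested genes that passed in that fit.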

How the data were processed

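RNA sequencing of U87-MG cells gave 3 NC and 3 GRIK1 siRNA libraries, grouped by their labels alone. The authors deposited raw counts per gene and FPKM values made from them: 100% of FPKM values equal the count divided by exonic length and by the library total, within 0.01. The submitters' processing notes name cutadapt 1.9.1, HISAT2, HTSeq and GRCh38. The strand setting is not given in the sources used here. Total counts lay between 11099909 and 14006968, and 0 columns of values were left unassigned.

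All genes averaging 0.5 FPKM or more were tested on the deposited counts with the quasi-likelihood test of edgeR 4.0.16 (R 4.3.3, TMM scaling, no block), two-sided, with Benjamini-Hochberg adjustment over all 15870. A call needs an adjusted p under 0.05 and a log2 fold change over 1 in size. The SE given for edgeR is the size of the log2 fold change over the square root of the test's F statistic. It is derived from the test and is not a separate measure of spread. FPKM were used for levels only, and the share of genes whose groups did not overlap was taken from TMM-scaled counts. An exact permutation test of 3 against 3 cannot go below 0.1 and was not used. The tests were first tried on simulated counts. Members and lists were chosen with earlier results of these data known.

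Every tested member is named. Values in every library are given for members averaging 2 FPKM or more, an unadjusted p under 0.05, or an adjusted p under 0.05 without NC library 3. Below the filter, the 5 highest members and those with at least 20 counts and an unadjusted p under 0.05 are named, and of each partner list at most 5 tested genes with an unadjusted p under 0.05. Alternatives were no filter, a filter at 1 FPKM, filterByExpr, RLE and upper-quartile scaling, DESeq2 1.42.0, limma 3.58.1 (limma-trend on log2(FPKM + 1) and log2(FPKM + 0.1), and voom with sample quality weights), a replicate block and each library left out. The fit with no filter and without NC library 3 was added after the data were seen. Sequences came from GENCODE 29 and RefSeq (GRCh38.p14). A few single-gene results are not reported here.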

Additional observations from a re-analysis of the deposited data

How the results depend on the processing

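The depth and the 3 libraries in a group limit what can be tested, and the spread rests on NC library 3. The number of called members, 1, was 0 with limma-trend on log2(FPKM + 0.1) and 0 to 1 with 1 library left out. The number with an adjusted p under 0.05, 2, was 1 with limma-trend on log2(FPKM + 1) and with upper-quartile scaling. It was also 1 with a mean of at least 1 FPKM, where KCNQ3 (mean 0.86 FPKM) fell below the filter and was not tested. It was 0 with limma-trend on log2(FPKM + 0.1) (4 at an unadjusted p under 0.05). With voom it was 7 (where 39.9% of all tested genes passed). With no filter and no NC library 3 it was 7 of 75 members fitted, where 17.3% of all genes fitted passed. With 1 library left out it was 0 to 7, and the 7 came without NC library 3 (where 35.2% of all tested genes passed). Over all tested genes the 224 calls became 498 in DESeq2, 125 and 113 with limma-trend (pseudocounts 0.1 and 1), 664 with no filter, 738 with voom, and 0 to 491 with 1 library left out. The 1 listed partner called (AKAP9) became 0 with either limma-trend, 0 with no filter (AKAP9 at 0.9997, adjusted p = 0.00229) and 0 to 1 with 1 library left out, where the 1 is ABCC9 without NC library 3. The cause was not tested.

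The deviations of same-numbered libraries correlated at -0.07, 0.04 and -0.04. Within NC the deviations largely reflect the library that stood apart. These correlations therefore cannot decide whether the replicate numbers pair the libraries. With the replicate block, 0 members were called, 0 had an adjusted p under 0.05, and 0 partners and 0 of all tested genes were called (edgeR, 4 members and 3324 genes at an unadjusted p under 0.05). KCND1 then had a log2 fold change of 1.88 (edgeR, adjusted p = 0.0923) and KCNQ3 of 0.95 (adjusted p = 0.0994).

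KCND1 stayed positive in each of 18 settings (1.15 to 2.07), KCNQ3 in 17 (0.45 to 1.03), and KCNS3 (-0.90 to -0.43) and KCNJ15 (-1.02 to -0.34) stayed negative. The groups of these genes did not overlap and the settings reuse the same libraries, so a turn of sign was hardly possible. Members with small differences changed sign. With limma-trend (pseudocounts 0.1 and 1) these were KCNG1 (0.027 and 0.024), KCNC4 (0.030 and 0.0075), KCNN3 (0.055 and 0.021), KCNMA1 (0.073 and 0.056) and, with 0.1 alone, KCNIP2 (0.011). With no filter and no NC library 3 they were KCNG1 (0.045), KCNMA1 (0.067) and KCNT2 (-0.012), and with voom KCNG1 (0.010), KCNMA1 (0.11) and KCNT2 (-0.00070). KCNMA1 was also 0.0058 with a mean of at least 1 FPKM. With 1 library left out, the ranges that crossed 0 were those of KCNG1 (-0.19 to 0.076), KCNC4 (-0.25 to 0.071), KCNIP2 (-0.62 to 0.17), KCNN3 (-0.15 to 0.11) and KCNMA1 (-0.10 to 0.10). In CPM in place of FPKM the log2 ratio of summed levels was 0.23 for the voltage-gated class, -0.31 for the inward rectifiers and -0.038 for the K2P class, against 0.10, -0.04 and 0.37.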
